A study of Mus musculus with 11 samples.

Results

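The potassium channel genes described here are the rows of the count table whose symbol is Kcn, 1 or more lower-case letters and a number. They number 92 of the 55291 genes in the table. By the letters of the symbol they fall into 30 voltage-gated pore-forming subunits, 10 electrically silent voltage-gated subunits, 8 calcium- or sodium-activated channels, 15 inward rectifiers, 14 2-pore-domain channels and 15 auxiliary subunits. Their RNA was measured by sequencing in mouse E14 embryonic stem cells, grown on no feeder layer in serum, LIF and a MEK and a GSK3 inhibitor. Both tagged lines carry SPT16 with a C-terminal V5 epitope and an auxin-inducible degron, which lets indole-3-acetic acid (IAA) direct the protein to degradation. SPT16 is the large subunit of FACT, a histone chaperone that takes nucleosomes apart and rebuilds them. The tagged lines 10E and 11D received 500 nM IAA (3 libraries) or the same volume of ethanol (EtOH, 4 libraries) for 24 h. An untagged line received IAA (3 libraries) and has no EtOH library. The count columns of that line bear the code TIR1, the name of the plant auxin receptor on which degrons of this kind depend, and the labels do not say which lines express it. Each tagged line was targeted independently, and the labels call each 1 clone.

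Potassium channels let potassium ions leave or enter a cell down their electrochemical gradient and set its resting voltage. Voltage-gated subunits open when the membrane depolarises, silent subunits do not form channels alone but change the voltage-gated channels they join, and calcium- or sodium-activated channels open when those ions rise inside the cell. Inward rectifiers pass potassium more easily into the cell, 2-pore-domain channels leak potassium near rest, and auxiliary subunits alter the gating or surface delivery of the pore. The family is best known for excitable cells such as neurons and muscle.

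Total counts were 3100127 to 13510163 per library. Supt16, which encodes SPT16, had 383, 415, 363 and 389 CPM (reads of the gene relative to library size, scaled by TMM) in the EtOH libraries, 278, 253 and 286 CPM in tagged IAA and 552, 537 and 576 CPM in untagged IAA. The groups did not overlap, but the degron acts on the protein, so the RNA does not check its depletion. Pluripotency markers, a list of 8 genes, summed to 4586 to 6074 CPM in the EtOH libraries, 1902 to 2168 CPM in tagged IAA and 5180 to 5425 CPM in untagged IAA. All 8 were lower in tagged IAA than in EtOH (median log2 fold change -1.52, edgeR FDR under 0.05). Neuronal markers summed to 220 to 230 CPM in EtOH, 122 to 136 CPM in tagged IAA and 155 to 201 CPM in untagged IAA, with 1 higher and 3 lower of 4 tested and Dcx at 0 counts in every EtOH and untagged library. Muscle markers summed to 338 to 625 CPM in EtOH, 498 to 613 CPM in tagged IAA and 368 to 460 CPM in untagged IAA, with 3 higher and 0 lower of 4 tested, and Myod1 and Actc1 at 0 in every EtOH and untagged library. Fibroblast markers had 0 higher and 1 lower of 4 tested, with Postn at 0 in all 10 libraries, and summed to 21.6 to 34.3 CPM, 15.8 to 19.7 CPM and 22.1 to 28.6 CPM in the same order of groups. Trophectoderm markers had 2 higher and 2 lower of 6 tested (61.7 to 74.6 CPM, 61.9 to 77.6 CPM and 52.7 to 62.2 CPM), and primitive endoderm markers 2 higher and 1 lower of 5 tested (372 to 517 CPM, 152 to 218 CPM and 457 to 500 CPM). Over all genes tested 29.3% were higher and 28.1% lower in tagged IAA than in EtOH. The part of these markers in the results on channel genes was not tested, and in bulk RNA fewer cells of a type cannot be told apart from less RNA per cell.

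Most of the family was at or near the floor of the data. Of the 92 members, 8 had no count in any library, 32 had fewer than 10 counts over all 10 libraries, and 55 stayed under a mean of 1 CPM in each of the 3 groups. In EtOH 30 members reached a mean of 1 CPM, 9 reached 5 CPM and 4 reached 10 CPM. In tagged IAA the numbers were 33, 9 and 4, and in untagged IAA 27, 9 and 3.

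Per kilobase of exon, the highest level in EtOH was that of Kcnk5, an acid-sensitive 2-pore-domain leak channel, at 15.5 CPM per kb. The inward rectifier Kcnj12 had 4.40 CPM per kb. Kcnip2, a calcium-binding partner of Kcnd channels, had 2.10 CPM per kb, Kcnd1, a subunit of transient A-type currents, 1.91 CPM per kb, and Kcnh2, the ERG channel that repolarises the heart, 1.90 CPM per kb. In tagged IAA Kcnk5 had 7.76 CPM per kb, Kcnj4 6.69 CPM per kb and Kcnd1 4.69 CPM per kb.

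**Figure D1:**
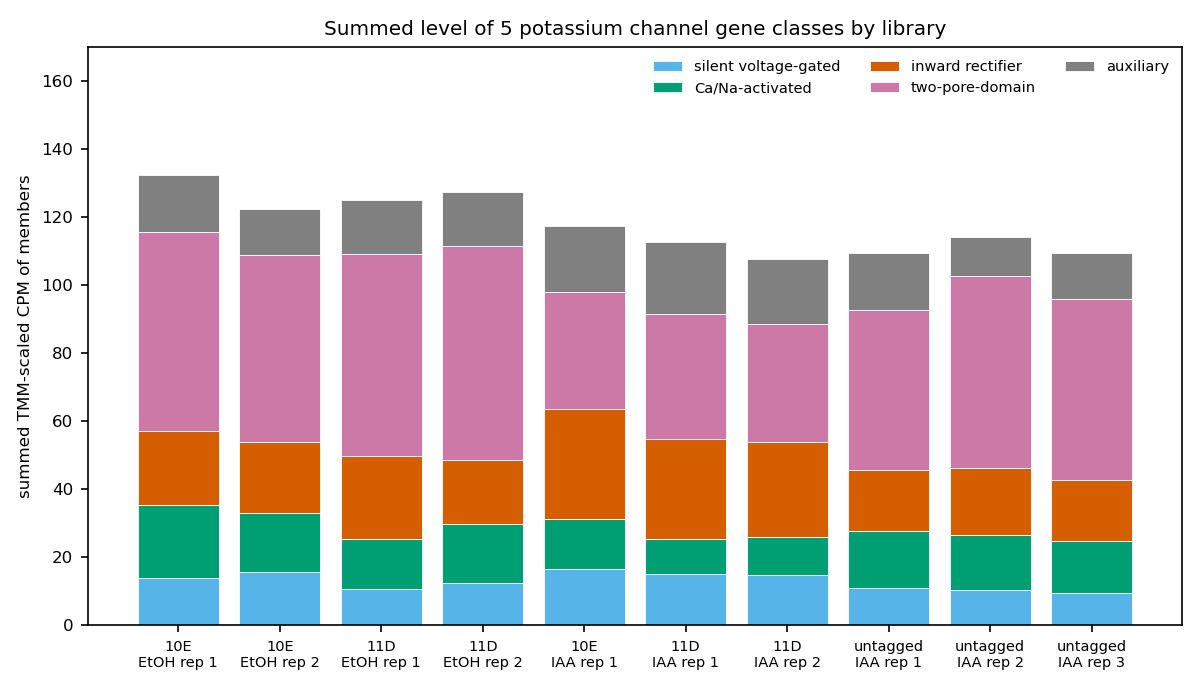
Summed TMM-scaled CPM of 62 members in each of the 10 libraries (vertical axis, linear from 0), with coloured segments for 5 classes, all but the voltage-gated subunits. The 2-pore-domain segment is the tallest in every library and averages 58.9 CPM in EtOH and 35.4 CPM in tagged IAA.

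Sums of 5 classes differed in direction between EtOH and tagged IAA. Inward rectifiers summed to 18.8 to 24.5 CPM in EtOH and 28.1 to 32.4 CPM in tagged IAA, and auxiliary subunits to 13.5 to 16.9 CPM and 19.1 to 21.0 CPM. The 2-pore-domain channels were lower, at 55 to 63 CPM in EtOH and 34.5 to 37.0 CPM in tagged IAA. The ranges of the EtOH and tagged IAA libraries overlapped for silent subunits (10.6 to 15.7 and 14.6 to 16.4 CPM) and for calcium- or sodium-activated channels (14.6 to 21.6 and 10.2 to 14.7 CPM). Scaled by library totals, the silent subunits did not overlap (9.57 to 13.9 and 16.8 to 19.6 CPM), and the other 4 classes were as with TMM, with 2-pore-domain channels at 48.6 to 59.4 CPM in EtOH and 39.7 to 41.9 CPM in tagged IAA. With 4 libraries against 3, an exact two-sided test cannot reach a p under 0.05, so these ranges are given without one.

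The main comparison asks how the RNA of tagged cells differs after 24 h of IAA. It tested 46 of the 92 members with edgeR's quasi-likelihood test, with line as a term and p-values adjusted over 17904 genes, and called a member at a false discovery rate (FDR) under 0.05. The other 46 members had too few counts, none with a group mean above 0.683 CPM. With IAA 15 members were higher (32.6% of those tested, against 29.3% of all genes tested) and 12 were lower (26.1%, against 28.1%). In all 27 members changed, or 58.7%, against 57.4% of all genes. Each share is near the background. The median log2 fold change was 0.15 over the members and 0.03 over all genes. The EtOH and IAA libraries did not overlap for 23 of the 46 members, against 52.5% of all genes. With library totals in place of TMM the median of all genes moved by 0.331 on the log2 scale, the share of calls that were higher went from 51.0% to 73.0% over all genes, and the members called went to 16 higher and 8 lower. Some members with almost no counts in EtOH entered the test through their IAA counts, so nothing is read from the balance of the calls.

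**Figure D2:**
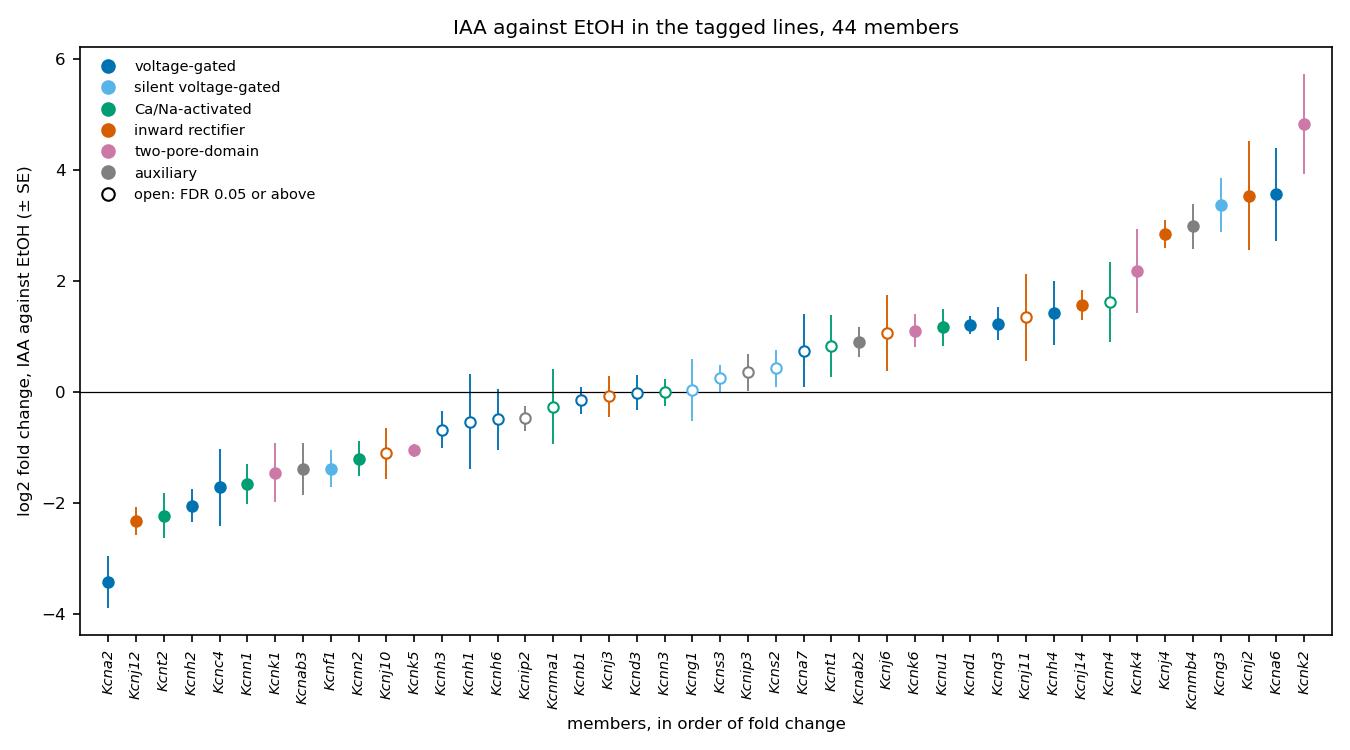
Log2 fold change of IAA against EtOH in the 7 tagged libraries (vertical axis, points with SE) for 44 of the 46 members tested, in order, coloured by class. Filled points passed an FDR of 0.05. They run from Kcna2 at -3.42 to Kcnk2 at 4.84, and every class has filled points on both sides of 0.

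Higher and lower members had different levels in EtOH. Of the 15 higher members, 9 had a mean under 2 CPM in EtOH. Of the 12 lower members, 11 had at least 2 CPM in EtOH. A member near 0 in EtOH can pass the low-count filter only through its IAA libraries, so nothing is read from this difference. A fitted change of at least 2-fold was seen in 14 of the 15 higher and all 12 lower members. Of the 27 members, 20 had EtOH and IAA libraries that did not overlap. Neither share was computed over all called genes, so nothing is read from these counts.

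Promoter stretches are shown for 5 of these members with an entry in RefSeq's promoter table for GRCm38.p6, 2 that rose and 3 that fell. The stretches were picked by hand and not by a rule. Each is the 200 bases before the annotated start, less any base inside an exon of the GENCODE vM21 annotation, 5′ to 3′ on the gene's strand, with each CG in capitals.
Kcnj4 (rose, chr15:79505242-79505441, minus strand): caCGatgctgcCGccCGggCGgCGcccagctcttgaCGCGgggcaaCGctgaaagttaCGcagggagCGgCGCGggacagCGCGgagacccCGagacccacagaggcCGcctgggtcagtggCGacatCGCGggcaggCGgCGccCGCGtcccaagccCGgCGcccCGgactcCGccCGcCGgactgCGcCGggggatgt
Kcng3 (rose, chr17:83631896-83632095, minus strand): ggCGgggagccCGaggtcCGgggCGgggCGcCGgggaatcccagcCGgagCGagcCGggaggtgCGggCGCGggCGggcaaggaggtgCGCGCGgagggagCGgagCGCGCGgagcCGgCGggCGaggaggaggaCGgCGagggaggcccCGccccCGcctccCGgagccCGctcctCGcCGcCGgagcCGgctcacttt
Kcna2 (fell, chr3:107101395-107101566, plus strand): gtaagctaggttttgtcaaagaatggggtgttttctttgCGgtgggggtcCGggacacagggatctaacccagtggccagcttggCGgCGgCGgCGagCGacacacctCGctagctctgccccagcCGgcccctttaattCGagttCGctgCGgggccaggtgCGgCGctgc
Kcnj12 (fell, chr11:61065604-61065803, plus strand): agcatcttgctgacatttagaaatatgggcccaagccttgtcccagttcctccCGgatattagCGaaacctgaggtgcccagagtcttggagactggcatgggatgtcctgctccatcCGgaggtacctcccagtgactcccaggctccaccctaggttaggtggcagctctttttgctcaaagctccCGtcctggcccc
Kcnk5 (fell, chr14:20181810-20181982, minus strand): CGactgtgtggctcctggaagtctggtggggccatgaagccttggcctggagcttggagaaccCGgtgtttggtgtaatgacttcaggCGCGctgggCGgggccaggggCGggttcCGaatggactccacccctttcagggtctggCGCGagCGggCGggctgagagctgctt

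The stretches differ widely in CG content. Kcnj4 holds 31 CG in 200 bases (76.5% G or C, observed over expected CG 1.06) and Kcng3 holds 33 in 200 bases (82.5%, 1.01). Kcna2 holds 14 in 172 bases (63.4%, 0.822) and Kcnk5 11 in 173 bases (65.3%, 0.632), while Kcnj12 holds 4 in 200 bases (56.5%, 0.254). Over the 27025 genes of the table the median is 5 CG per 200 bases, with quartiles of 2 and 13, and a median observed over expected of 0.393. The letters GGGCGG, searched on both strands, are in the Kcnj4, Kcng3 and Kcnk5 stretches. Of all genes of the table, 33.7% hold them in the 200 bases before at least 1 of their starts. The start used for Kcnj12 lies inside the GENCODE gene, which begins at chr11:61022564, and the Kcna2 stretch lies between 2 GENCODE exons. Only 67 of the 92 members, or 72.8%, have an entry in the table, so CG content was not compared over the family. Kcnk2, Kcna6 and Kcnj2 have entries and were also called higher, on few counts (log2 fold change 4.84 ± 0.90, 3.57 ± 0.84 and 3.54 ± 0.98). With those SE they are not ranked against Kcng3 (3.38 ± 0.49). Over longer windows that reach past the start, averaged over a gene's starts, their observed over expected CG was 0.598, 0.384 and 0.540. That of Kcnj4, Kcng3 and Kcnmb4, which also rose, was 0.948, 0.991 and 1.04. That of Kcna2, Kcnk5 and Kcnj12, which fell, was 0.932, 0.878 and 0.165. The 2 shown that rose therefore do not stand for all members that rose. A link between CG content and the direction of change was not tested.

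Among the voltage-gated subunits, 15 of 30 were tested, 5 were higher and 4 lower. Over all genes tested 29.3% were higher and 28.1% lower. The classes are too small to set against those shares, so nothing is read from the counts of this and the next classes. Kcnd1 is at chrX:7822289-7838280. It had 9.94 and 8.49 CPM in 10E EtOH, 10.6 and 11.4 CPM in 11D EtOH, 17.9 CPM in 10E IAA and 26.7 and 29.8 CPM in 11D IAA (log2 fold change 1.20 ± 0.16, FDR 1.1e-05). The untagged libraries had 6.93, 10.3 and 9.58 CPM, within the range of the EtOH libraries or below it. Kcnd3, which forms the same type of current, had 2.75 and 7.60 CPM in 10E EtOH, 4.35 and 4.38 CPM in 11D EtOH, and 5.03, 4.55 and 4.51 CPM in tagged IAA (log2 fold change -0.01 ± 0.31, FDR 0.987). Its sign flips with the scaling, to 0.33 with library totals.

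The lower voltage-gated members included Kcna2 and Kcnh2. Kcna2, a Shaker-type subunit known from axons, is at chr3:107101146-107115005. It had 4.44 and 4.14 CPM in 10E EtOH, 4.35 and 7.25 CPM in 11D EtOH, 1.09 CPM in 10E IAA and 0.569 and 0.258 CPM in 11D IAA. In untagged IAA it had 5.78, 8.92 and 7.91 CPM. Every tagged IAA library was below every other library, and the log2 fold change of -3.42 ± 0.47 (FDR 1.39e-05) was the lowest among the members tested.

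Kcnh2, at chr5:24319589-24351604, had 9.28 and 6.81 CPM in 10E EtOH, 11.8 and 8.86 CPM in 11D EtOH, 2.41 CPM in 10E IAA and 3.41 and 1.74 CPM in 11D IAA (log2 fold change -2.04 ± 0.29, FDR 2.14e-05). The untagged libraries, at 4.62, 4.71 and 7.35 CPM, lay above tagged IAA and partly below EtOH. Kcnh3, a related subunit known from the forebrain, had a mean of 6.33 ± 3.13 CPM (SD, n = 4) in EtOH and 3.49 ± 0.196 CPM (SD, n = 3) in IAA and did not pass (log2 fold change -0.67 ± 0.33, FDR 0.0934). It passed without 10E EtOH replicate 2 (FDR 0.0256), without 11D EtOH replicate 2 (FDR 0.0417) and with no filter (FDR 0.0375), over a range of 0.0256 to 0.458. Its EtOH libraries were spread from 3.85 to 10.9 CPM.

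Kcnq3, a subunit of the M current that limits repeated firing, lies outside the naming rule and was singled out after its values were seen. It had 1.83 and 1.97 CPM in 10E EtOH, 1.24 and 2.33 CPM in 11D EtOH, 4.59 CPM in 10E IAA and 5.12 and 4.51 CPM in 11D IAA (log2 fold change 1.24 ± 0.30, FDR 0.00218). The EtOH and IAA libraries did not overlap, and the call held under all 14 alternatives.

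Kcnc4, a Shaw-type subunit, was lower, from 1.46 ± 0.717 CPM (SD, n = 4) to 0.495 ± 0.333 CPM (SD, n = 3), with overlapping libraries and an FDR of 0.0453. The call ended under 8 alternatives, among them leaving out 10E EtOH replicate 1 (0.0876), 10E IAA (0.136), 11D EtOH replicate 1 (0.138) or 11D IAA replicate 2 (0.296), and its FDR ranged from 0.0169 to 0.296. Kcna6, a Shaker-type subunit, had 3, 0, 1 and 0 counts in the EtOH libraries, 11 in 10E IAA and 4 and 12 in 11D IAA. The untagged line had 0, 1 and 0 counts. The fitted log2 fold change was 3.57 ± 0.84 (FDR 0.00177), on few counts, and it shares 2355 exonic bases with Gm26673 on the other strand, which had no counts in any library. Kcnh4 was also higher and was named after its values were seen. It had an FDR of 0.0444 that passed the threshold under 3 of 13 alternatives.

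**Figure D3:**
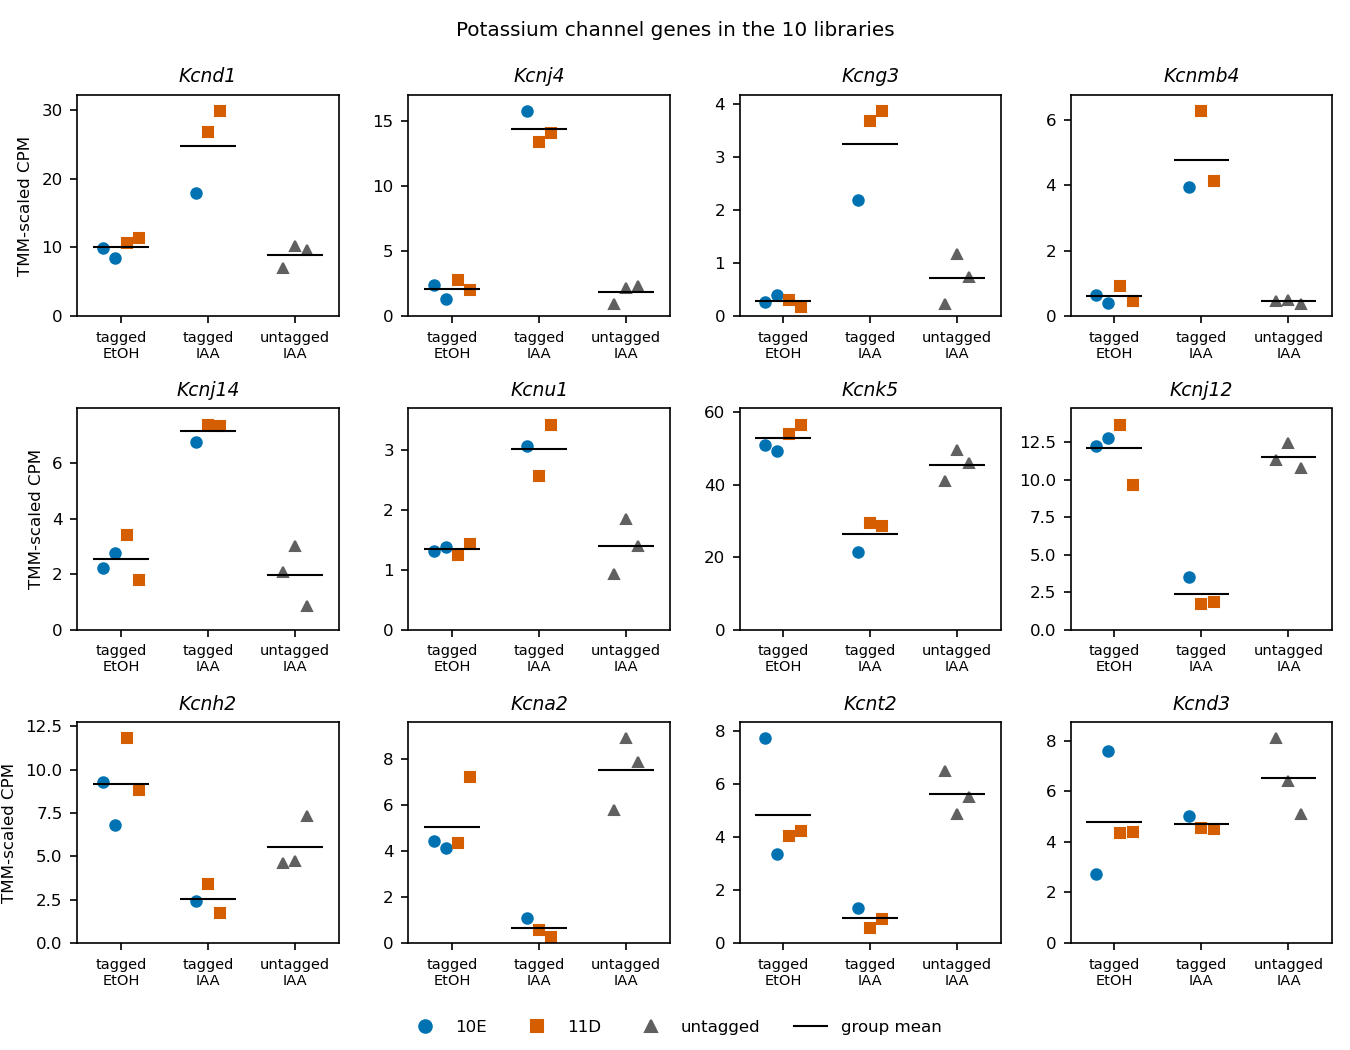
TMM-scaled CPM (vertical axes, linear from 0, 1 scale per panel) of 12 members in the 10 libraries, with circles for 10E, squares for 11D, triangles for the untagged line and a bar at each group mean. Tagged IAA libraries stand above both other groups for Kcnd1, Kcnj4, Kcng3, Kcnmb4, Kcnj14 and Kcnu1 and below both for Kcnk5, Kcnj12, Kcnh2, Kcna2 and Kcnt2, and for Kcnd3 they lie within the EtOH range and just below the untagged libraries.

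Of the 10 silent subunits, 5 were tested, 1 was higher and 1 lower. Kcng3, at chr17:83585957-83631895, which joins Kcnb subunits, had 0.261 and 0.395 CPM in 10E EtOH, 0.311 and 0.179 CPM in 11D EtOH, 2.19 CPM in 10E IAA and 3.70 and 3.87 CPM in 11D IAA (log2 fold change 3.38 ± 0.49, FDR 2.26e-05). In untagged IAA it had 0.231, 1.18 and 0.744 CPM, still below all tagged IAA libraries. Kcnf1, at chr12:17172100-17176888, had 6.67 and 7.60 CPM in 10E EtOH, 3.11 and 1.97 CPM in 11D EtOH, 2.19 CPM in 10E IAA and 1.42 and 0.967 CPM in 11D IAA (log2 fold change -1.38 ± 0.34, FDR 0.00251). Within each line its IAA libraries were below the EtOH libraries, although the lines overlapped. The call ended without the 10E IAA library (FDR 0.0643, range 0.000306 to 0.0643). Kcns3, the silent subunit with the highest mean in tagged IAA, went from 4.56 ± 1.09 CPM (SD, n = 4) to 5.75 ± 0.361 CPM (SD, n = 3) and did not pass (log2 fold change 0.25 ± 0.24, FDR 0.396).

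All 8 members placed by symbol in the calcium- or sodium-activated class were tested, and 1 was higher and 3 lower. The 1 higher member was Kcnu1, a pH-sensitive channel that is in this class by its symbol alone. Kcnt2, a sodium-activated channel at chr1:140246158-140612067, had 7.71 and 3.35 CPM in 10E EtOH, 4.04 and 4.21 CPM in 11D EtOH, 1.31 CPM in 10E IAA and 0.569 and 0.903 CPM in 11D IAA (log2 fold change -2.22 ± 0.41, FDR 0.000225). Untagged IAA was at 6.47, 4.88 and 5.49 CPM. Kcnn1, a small-conductance channel that senses calcium through calmodulin, fell from 3.34 ± 0.624 CPM (SD, n = 4) to 1.10 ± 0.378 CPM (SD, n = 3; log2 fold change -1.65 ± 0.36, FDR 0.00106). The third lower member was its relative Kcnn2, from 4.15 ± 0.844 CPM (SD, n = 4) to 1.78 ± 0.161 CPM (SD, n = 3), which was named after its values were seen. Kcnu1, the pH-sensitive channel of sperm, had 1.31, 1.38, 1.24 and 1.43 CPM in EtOH and 3.06, 2.56 and 3.42 CPM in IAA (log2 fold change 1.17 ± 0.34, FDR 0.00744). Its groups did not overlap, but the call ended without 11D IAA replicate 2 (FDR 0.0606) and with DESeq2 (FDR 0.0595), over a range of 0.00142 to 0.0606. Kcnt2, Kcnn1 and Kcnn2 share 102, 132 and 607 exonic bases with genes on the other strand, and those of Kcnt2 and Kcnn1 had at most 5 and 0 counts in any library.

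Among the 15 inward rectifiers, 8 were tested, 3 were higher and 1 lower. Kcnj4 and Kcnj12, which both form strong rectifiers, crossed. Kcnj4, at chr15:79483714-79505241, had 2.35 and 1.28 CPM in 10E EtOH, 2.80 and 1.97 CPM in 11D EtOH, 15.7 CPM in 10E IAA and 13.4 and 14.1 CPM in 11D IAA. In untagged IAA it had 0.924, 2.19 and 2.33 CPM. All 3 tagged IAA libraries stood far above the 7 others, with a log2 fold change of 2.85 ± 0.25 (FDR 1.15e-07), the smallest FDR among the members.

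Kcnj12, at chr11:61022564-61071131, had 12.3 and 12.8 CPM in 10E EtOH, 13.7 and 9.66 CPM in 11D EtOH, 3.50 CPM in 10E IAA and 1.71 and 1.87 CPM in 11D IAA (log2 fold change -2.33 ± 0.25, FDR 1.22e-06). The untagged libraries, at 11.3, 12.4 and 10.8 CPM, lay within the EtOH range. Per kilobase, Kcnj12 was at 4.40 CPM per kb in EtOH and 0.857 CPM per kb in IAA, while Kcnj4 was at 0.976 and 6.69 CPM per kb, so the order of the pair was opposite in the 2 groups. The promoter stretches shown hold 31 CG for Kcnj4 and 4 for Kcnj12, but the start used for Kcnj12 lies inside the GENCODE gene. This describes 2 genes, and a link to their change was not tested.

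Kcnj14, another strong rectifier, at chr7:45816460-45824782, had 2.22, 2.76, 3.42 and 1.79 CPM in EtOH, 6.78, 7.39 and 7.35 CPM in tagged IAA and 2.08, 3.03 and 0.837 CPM in untagged IAA (log2 fold change 1.57 ± 0.27, FDR 0.000138). Kcnj2, the classical rectifier of heart and skeletal muscle, had 0, 2, 0 and 0 counts in EtOH and 4, 4 and 9 counts in tagged IAA. The pooled ratio was 11.6 with TMM scaling, with an exact 95% counting interval of 2.75 to 103, and 14.4 with library totals. That interval covers counting error only. Kcnj2 passed the test (FDR 0.00589) and gave a value under 8 of the 14 alternatives, all of them past the threshold. It did not pass the low-count filter in the others, among them the fit without 10E IAA replicate 1.

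Of the 14 2-pore-domain channels, 5 were tested and all 5 were called, 3 higher and 2 lower. Over all genes tested 57.4% were called, and 5 members are too few to set against that share. Kcnk5, at chr14:20140057-20181809, had 51.0 and 49.3 CPM in 10E EtOH, 54.1 and 56.5 CPM in 11D EtOH, 21.4 CPM in 10E IAA and 29.3 and 28.5 CPM in 11D IAA. In untagged IAA it had 40.9, 49.5 and 45.9 CPM. The tagged IAA libraries were below all others, with a log2 fold change of -1.05 ± 0.12 (FDR 1.86e-06). Most of the class sum was Kcnk5, which went from a mean of 52.7 to 26.4 CPM.

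Kcnk1, a weakly inward-rectifying leak channel, was lower (log2 fold change -1.45 ± 0.54, FDR 0.0307), but mainly in 11D. It had 2.18 and 3.85 CPM in 11D EtOH against 1.42 and 0.322 CPM in 11D IAA, and 3.27 and 1.97 CPM in 10E EtOH against 2.41 CPM in 10E IAA. Kcnk1 shares 179 exonic bases with Gm45875 on the other strand. The call ended without 11D EtOH replicate 2 (FDR 0.315), without 11D IAA replicate 2 (FDR 0.379), with library totals (FDR 0.0909), with DESeq2 (FDR 0.134) and with no line term (FDR 0.0592), over a range of 0.00115 to 0.379. Kcnk6 was higher, at 2.75, 2.66, 1.55 and 2.42 CPM in EtOH and 7.65, 4.55 and 3.29 CPM in IAA (log2 fold change 1.11 ± 0.30, FDR 0.0047). Without the 10E IAA library its FDR was 0.114, the highest of a range that began at 0.000674.

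Kcnk2, a leak channel that opens with membrane stretch, had 0, 1, 0 and 0 counts in EtOH, 7, 3 and 16 in tagged IAA and 3, 1 and 0 in untagged IAA. The pooled ratio to EtOH was 35.4 with TMM scaling, with an exact 95% counting interval of 5.82 to 1.45e+03, and 44.1 with library totals (fitted FDR 0.000267). Kcnk2 passed the low-count filter through its IAA libraries and gave a value under 12 of the 14 alternatives. It did not pass that filter without 10E IAA replicate 1 or without 11D IAA replicate 2. It shares 604 exonic bases with A430027H14Rik on the other strand, which had no counts. Kcnk4, named after its values were seen, was the other higher member, on 6 and 4 counts in 10E EtOH, 0 in both 11D EtOH libraries and 24 in tagged IAA (FDR 0.0212). Kcnk4 shares 587 exonic bases with Catsperz on the same strand, and the part of that overlap was not tested. Its call ended with no line term (FDR 0.11) and without the 2 EtOH libraries with the most CT010467.1 (FDR 0.0737), over a range of 0.00395 to 0.11, and 4 of the 14 alternatives gave it no value.

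Of the 15 auxiliary subunits, 5 were tested, 2 were higher and 1 lower. Kcnmb4, the neuronal beta subunit of the large-conductance channel, is at chr10:116417861-116473878. It had 0.654 and 0.395 CPM in 10E EtOH, 0.932 and 0.447 CPM in 11D EtOH, 3.94 CPM in 10E IAA and 6.25 and 4.13 CPM in 11D IAA (log2 fold change 2.99 ± 0.40, FDR 1.22e-05). The untagged libraries had 0.462, 0.505 and 0.372 CPM. The pore-forming subunit that it joins, Kcnma1, which was singled out after its values were seen, had 0.615 ± 0.428 CPM (SD, n = 4) in EtOH and 0.727 ± 0.380 CPM (SD, n = 3) in IAA and did not pass (FDR 0.764). Kcnmb4 shares 1048 exonic bases with Kcnmb4os1 and Kcnmb4os2 on the other strand, of which Kcnmb4os2 had 2 counts in EtOH and 15 in tagged IAA. Its part in the result was not tested.

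Kcnab2, a beta subunit of Shaker-type channels, had 3.27, 2.76, 1.86 and 3.49 CPM in EtOH and 6.12, 5.12 and 5.35 CPM in IAA (log2 fold change 0.90 ± 0.27, FDR 0.00933). Its call ended without the 10E IAA library (FDR 0.0684) and without the 2 EtOH libraries with the largest share of the transcript CT010467.1 (FDR 0.0508), over a range of 0.00125 to 0.0684. Kcnab3, of the same family, was lower, from 2.40 ± 0.402 CPM (SD, n = 4) to 1.15 ± 0.744 CPM (SD, n = 3), with overlapping libraries (log2 fold change -1.38 ± 0.47, FDR 0.0192). That call ended without 11D IAA replicate 2 (FDR 0.236), without the 10E IAA library (FDR 0.0689), with library totals (FDR 0.0699) and with DESeq2 (FDR 0.105), over a range of 0.00543 to 0.236. Kcnip2 had 8.76, 6.31, 7.77 and 6.35 CPM in EtOH and 5.25, 5.12 and 5.03 CPM in IAA. The groups did not overlap, yet it did not pass (log2 fold change -0.47 ± 0.23, FDR 0.0887). Kcnab2 shares 125 exonic bases with Gm16334 on the same strand, and Kcnab3 shares 147 with Kcnab3os on the other strand.

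The 19 members tested and not called had log2 fold changes from -1.10 to 1.63, with SE up to 0.856. The nearest to the threshold was Kcnj10, a rectifier of glia, with an FDR of 0.0531, singled out after its values were seen. The 46 members left out of the test summed to 4.04 CPM in EtOH, 6.44 CPM in tagged IAA and 2.09 CPM in untagged IAA. Some of them had counts mainly in tagged IAA, and 2 were singled out after their values were seen. Kcna1, a Shaker-type subunit, had 0 counts in all 4 EtOH and all 3 untagged libraries and 5, 0 and 6 in tagged IAA. With 3 counts taken as the floor of the EtOH group, the ratio to EtOH was 5 with TMM scaling. That ratio takes the tagged IAA counts as exact, so it is not a lower bound. Kcnv2, a silent subunit of the retina, had 1, 0, 0 and 0 counts in EtOH and 3, 1 and 13 in tagged IAA, a ratio of 23.2 with TMM scaling, with an exact 95% counting interval of 3.63 to 969, and of 28.8 with library totals.

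Tagged IAA was also compared with untagged IAA, in which both arms had received the auxin. The fit used all 10 libraries and tested 17439 genes, 41 of them members. Of these, 15 were higher and 9 lower in tagged IAA, against 27.9% and 27.8% of all genes. The median log2 fold change of the members was 0.57, and that of all genes 0.02. A member near 0 in the untagged line can pass the low-count filter only through its tagged libraries. Nothing is therefore read from these medians or from the balance of the calls. The 3 highest were Kcna6 (4.51 ± 1.11, FDR 0.00281), Kcnmb4 (3.30 ± 0.47, FDR 2.56e-05) and Kcnj4 (2.91 ± 0.29, FDR 9.56e-07), and the 3 lowest Kcna2 (-3.64 ± 0.38, FDR 1.31e-06), Kcnt2 (-2.40 ± 0.41, FDR 0.00014) and Kcnj12 (-2.17 ± 0.24, FDR 1.94e-06). Kcna6 had 27 counts in tagged and 1 in untagged IAA, a pooled ratio of 24.1 with TMM scaling, with an exact 95% counting interval of 3.96 to 985, and of 29.2 with library totals.

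This comparison shares its IAA libraries with the one against EtOH, so the 2 are not independent. Kcns2 and Kcnt1, called here and not against EtOH, were named after their values were seen. Kcns2, a silent subunit, had 1.57, 1.87, 2.18 and 2.42 CPM in EtOH, 3.06, 3.41 and 2.39 CPM in tagged IAA and 0.231, 0.505 and 1.02 CPM in untagged IAA. Its untagged libraries were below all 7 tagged ones. Without 11D IAA replicate 2 the lower calls went from 9 to 5, and DESeq2 gave 9 higher and 5 lower.

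No member was called between the tagged lines in EtOH and the untagged line. Between tagged EtOH and untagged IAA, which differ in tag and in treatment at once, edgeR called 0 of 41 members, against 3.57% of all genes, with 8 members at an unadjusted p under 0.05 and 0 of the 8 that DESeq2 gave an adjusted p. The smallest FDR was that of Kcns2, at 0.061. Without 11D EtOH replicate 2, without untagged IAA replicate 3 and with no filter on low counts, 1 member was called higher in each case, and in the last 2 it was Kcns2.

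The lines 10E and 11D were also fitted apart, where the 10E value rests on 1 IAA library. No member was called for a line by treatment interaction (0 of 46 by edgeR, against 0% of all genes, and 0 of 83 by DESeq2). As edgeR called no gene at all, this does not show that the lines responded equally. By edgeR, 3 members had an unadjusted p under 0.05, and the smallest FDR was 0.938. Those 3 were Kcna2, with a log2 fold change of -1.97 ± 0.63 in 10E and -4.20 ± 0.52 in 11D, Kcnk1, with -0.11 ± 0.69 and -2.50 ± 0.64, and Kcnk4. Kcnk4 had the largest difference among the members, at 1.17 ± 0.95 in 10E and 5.87 ± 1.58 in 11D, on few counts. For Kcnj4 the values were 3.13 ± 0.37 and 2.63 ± 0.33, for Kcnj12 -1.85 ± 0.38 and -2.61 ± 0.30, and for Kcnk5 -1.24 ± 0.19 and -0.94 ± 0.14. In EtOH, 1 member differed between the lines, against 3.23% of all genes. That was Kcnf1, lower in 11D by -1.63 ± 0.36 on the log2 scale (FDR 0.0272). It was not called with DESeq2 (0 members) or in 4 fits that left out 1 library, namely either 10E EtOH library, the second of 11D EtOH or the second of 11D IAA. When both EtOH libraries with the largest CT010467.1 share were left out, 2 members were called, Kcnf1 and Kcnh3.

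**Figure D4:**
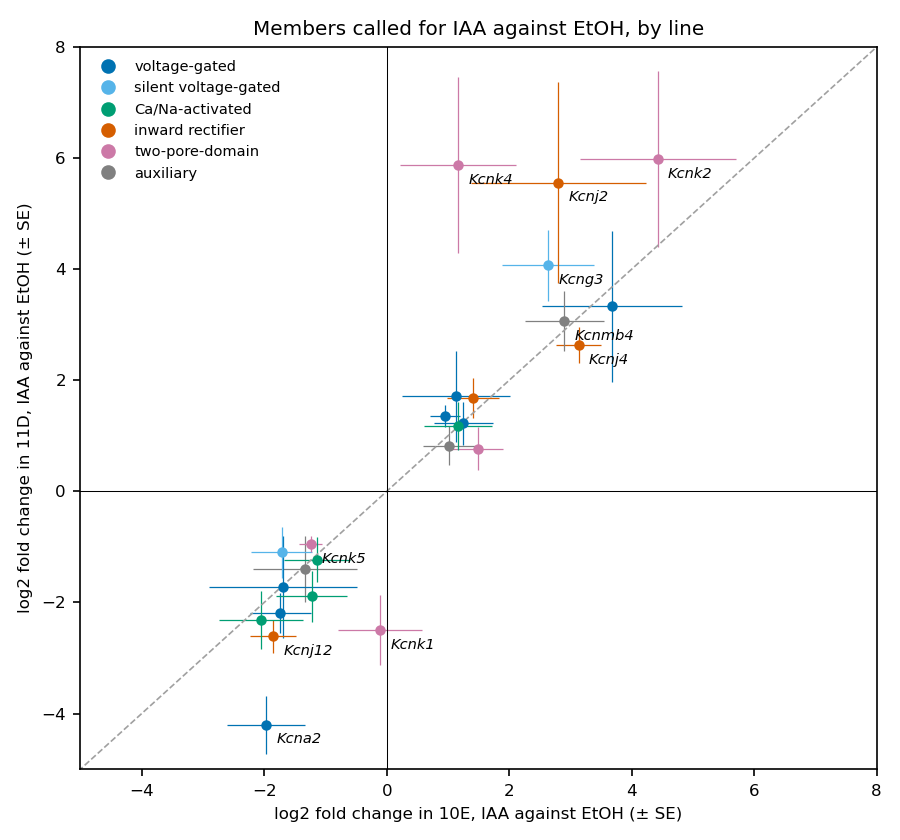
Log2 fold change of IAA against EtOH in 10E (horizontal axis) and 11D (vertical axis), with SE bars, for 25 of the 27 members called over both lines, coloured by class, with a dashed line of equal change. The members were chosen by a fit over both lines, which favours equal signs, so the quadrants of the points are no test, and Kcnk1 lies nearest to 0 on the 10E axis at -0.11.

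Genes that work beside the channels were described from lists that the symbol rule does not reach, and earlier results of these data were known when the lists were written. Of 17 channel partners and other cation channels, 9 were tested, 3 were higher and 4 lower with IAA. Over all genes tested 29.3% were higher and 28.1% lower, and nothing is read from the counts of this and the next lists. Tmem38a, which encodes a potassium counter-ion channel of the endoplasmic reticulum, went from 12.4 ± 2.35 to 39.4 ± 4.10 CPM (log2 fold change 1.60 ± 0.14), and Hcn4, a pacemaker channel, from 0.446 ± 0.133 to 3.33 ± 0.747 CPM (2.81 ± 0.44). Kcnrg, whose product blocks the assembly of voltage-gated channels, went from 2.61 ± 1.68 to 0.554 ± 0.621 CPM (-2.01 ± 0.52), and Amigo1, a partner of Kcnb channels, from 6.94 ± 1.60 to 2.72 ± 0.934 CPM (-1.41 ± 0.27). Here and in the next lists, levels are means ± SD over 4 EtOH and 3 IAA libraries, and fold changes are log2 values ± SE.

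Of 25 genes of potassium pumps and cotransporters, 15 were tested, 5 were higher and 6 lower. Beta subunits of the sodium pump split, with Atp1b1 from 265 ± 15.4 to 114 ± 3.87 CPM and Atp1b2 from 23.7 ± 2.90 to 74.0 ± 7.30 CPM, both past the threshold. Atp12a, a proton-potassium pump, went from 0.973 ± 0.632 to 19.1 ± 4.62 CPM (4.43 ± 0.28). Of 40 voltage-gated sodium and calcium channel genes, 23 were tested, 7 were higher and 4 lower, with Scn3b going from 9.06 ± 2.36 to 37.3 ± 3.11 CPM.

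Rest, the repressor often named for neuronal channel genes, had 610 ± 89.8 CPM in EtOH and 536 ± 30.3 CPM in IAA and did not pass (log2 fold change -0.17 ± 0.11, FDR 0.198). Of it and 5 of its partners, 0 were higher and 3 lower, with Rcor2 from 143 ± 27.9 to 37.5 ± 4.56 CPM. As a silent background, 2037 chemosensory receptor genes, which stem cells are not known to use, had 34 tested, 15 higher and 7 lower, and 1608 at 0 in every library. A receptor near 0 in EtOH can pass the low-count filter only through its IAA libraries, so nothing is read from the balance of these calls. Their summed level was 62.4 to 97.9 CPM in EtOH, 107 to 119 CPM in tagged IAA and 85.8 to 134 CPM in untagged IAA, so tagged IAA lay above EtOH but within the range of untagged IAA.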

How the data were processed

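Whole-cell RNA was sequenced after 24 h with 500 nM IAA or EtOH, from a directional library kit per the labels' protocols. The authors deposited raw counts per gene in a table of 10 libraries (the labels list 11 samples). STAR, deepTools and the mm10 build are named, per the submitters' processing notes, and for the read counter and its strand setting the answer is: not given in the sources used here. Column codes were matched to groups through the labels, and the columns coded for the untagged line are those with IAA replicate 3 and no EtOH. The authors' table of comparisons was not used.

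Counts were tested in R 4.3.3 with edgeR 4.0.16 (TMM scaling, filterByExpr with a smallest group of 1, quasi-likelihood test, Benjamini-Hochberg adjustment over all genes tested, FDR under 0.05). Simulated counts with few changed genes, none near the floor, were run through the same fit. That run does not check calls near the floor or data in which so many genes change. The fit of IAA against EtOH used the 7 tagged libraries with a line term, and those with the untagged line were fitted on all 10. The 1 library of 10E with IAA was assumed to vary like the other groups. Nothing in the labels says that replicates are separate cultures, so p-values may measure technical spread. Positions are from GENCODE vM21 (GRCm38, the mm10 build), and promoters from RefSeq. DESeq2 1.42.0, library totals, no low-count filter, a replicate block, no line term, all 10 libraries and leaving out each library were alternatives, and leaving out the 2 EtOH libraries richest in CT010467.1 was added after seeing the data.

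Members, lists and tests were chosen with earlier results of these data known. Named are members with a mean of at least 5 CPM in any group, the 6 highest and 6 lowest fold changes called, up to 2 called members per class and direction, the 3 highest and 3 lowest called of the other comparisons, and the highest member of each class. Total counts of 3100127 to 13510163 make 3 counts equal to 0.193 to 0.932 CPM. No replicate pair looked like 1 library deposited again (chi-square over its degrees of freedom 3.05 to 28.9). Intervals cover counting error only. A few genes are not reported here: 2 members count in the totals called but are left out of the figures, and no sum is given for the voltage-gated class.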

Additional observations from a re-analysis of the deposited data

Results flagged for a closer look

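Among the members named by rule and reported here, in 3 cases 1 of the 4 EtOH libraries stood apart from the other 3, by the gap to its nearest neighbour over the group's range. They were Kcna2 at 7.25 CPM in 11D EtOH replicate 2, and Kcnj2 at 0.197 CPM and Kcnk2 at 0.0987 CPM in 10E EtOH replicate 2. The Kcnj2 and Kcnk2 values are 2 counts and 1 count beside 3 libraries at 0. With 0 in the other 3 libraries, any count at all gives the widest gap possible, and members outside the naming rule with such counts were not listed. For values without such zeros, chance flags about 1 in 20 groups.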

How the results depend on the processing

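Of the 27 members called for IAA against EtOH, 17 were called under every alternative that gave a value. The 27 kept their sign wherever an alternative gave a value, which was under 8 to 13 of the 14 for Kcnj2, Kcnk4, Kcnk2, Kcna6 and Kcnh4. Without 10E IAA replicate 1 none of these named members passed the low-count filter, so their calls could not be checked there. Kcnj2, Kcnk2 and Kcna6 are among the 17. Leaving out 1 library gave 8 to 15 higher and 9 to 14 lower members, with 8 higher without 10E IAA replicate 1. For tagged against untagged IAA, leaving out 1 library gave 11 to 16 higher and 5 to 9 lower, and DESeq2 gave 9 higher and 5 lower. For tagged EtOH against untagged IAA it gave 0 to 1 higher and 0 lower, with 1 higher with no filter. For 11D against 10E in EtOH it gave 0 to 1 lower, with 0 by DESeq2 and 2 without the libraries richest in CT010467.1. The interaction gave 0 in each. The cause of these differences was not tested. Kcnd3 ranged from -0.20 to 0.30 when 1 library was left out, and turned positive with library totals (0.33), DESeq2 (0.038), the replicate block (0.13), without the libraries richest in CT010467.1 (0.30) and without 10E EtOH replicate 2 (0.30), 10E IAA replicate 1 (0.05) or 11D IAA replicate 2 (0.0081). Kcnip2 against untagged IAA turned positive with library totals (0.15). With the replicate number as a block, 14 members were higher and 12 lower against EtOH, and 10 higher and 9 lower against untagged IAA. Correlations of same-numbered replicates between groups were -0.17, -0.11 and 0.18, so the numbers were not taken to pair the libraries. Depth limits the members under 1 CPM most.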
